A study of Mus musculus with 7 samples.

Results

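The 7 genes Itgb3, Itgav, Src, Ptk2b, Vav3, Cbl and Pxn encode the core of the attachment and Src signalling machinery of the osteoclast, and they are described here through the open chromatin around them. A peak belonged to a gene when its midpoint lay inside the gene body on mm10, or within 100 kb with that gene as the nearest protein-coding gene. Of 21887 protein-coding genes these are 7, and of 975394 peaks in 7 lists they hold 1458. Peaks that overlapped or touched, from any list, were merged to give 344401 regions, of which 438 belong to the 7 genes. A region counted as called in every library with a peak over 1 bp or more of it.

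The study profiled RAW264.7, an established mouse line of monocyte-macrophage type that forms osteoclasts when given the cytokine RANKL. ATAC-seq, which cuts accessible DNA with a transposase, was run on 50000 cells per library. The groups were untreated cells (2 libraries), cells given RANKL at 50 ng/ml (2 libraries), cells given RANKL at 50 ng/ml with the BET bromodomain inhibitor I-BET at 500 nM (2 libraries), and cells given I-BET at 500 nM alone (1 library, numbered replicate 2 in the labels). All treatments lasted 4 h. The labels give bone marrow as the source beside the cell line name, no genotype, and nothing that says whether replicates came from separate cultures, so p-values measure only the spread between these libraries, which may be technical. All cells are of 1 line, and a region opened in fewer cells cannot be told apart from a region opened less in each cell. The comparisons ask where chromatin opens when the line starts towards the osteoclast and whether BET inhibition alters that, and they share the RANKL and the untreated libraries.

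The integrin pair of the av chain (Itgav) and the b3 chain (Itgb3) binds matrix proteins on bone through the RGD motif, and the b3 chain is a standard marker of the osteoclast. Bound integrin activates the tyrosine kinase c-Src together with the focal adhesion kinase family member Pyk2 (Ptk2b). These recruit the ubiquitin ligase and adaptor c-Cbl and the exchange factor Vav3, which loads Rac with GTP, while paxillin (Pxn) is the scaffold of the podosomes that form the sealing zone. Loss of Src, of the b3 chain or of Vav3 impairs bone resorption in mice.

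The lists were of unequal length and quality, which touches every count given here. They held 117175 to 166369 peaks, and the share of peaks with a deposited -log10 q of at least 5 ran from 25.3% in untreated replicate 1 to 74.0% in RANKL+I-BET replicate 2, the longest list. Untreated replicate 1 had 42.9% of its regions to itself, against 8.95% to 27.1% in the other libraries. Read counts per library were not used here, so depth is unknown. Regions called in all 7 libraries lay within 1 kb of an end of 8 of 8 macrophage marker genes and 5 of 6 genes of the mature osteoclast, with only Calcr lacking one. They lay at 2 of 5 B cell genes (Cd79a and Ebf1), 1 of 5 T cell genes (Cd4), 1 of 6 fibroblast or osteoblast genes (Col1a1) and 2 of 5 erythroid or granulocyte genes (Epor and Elane). Themis, Dcn, Gata1, Hba-a1 and Mpo had no peak within 1 kb of an end in any library. How many of all genes have such a shared region was not counted. The marker counts therefore have no background beside them and are a description only.

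The start regions show how differently the genes sit in the same libraries, and 4 RefSeq windows (GRCm38.p6, 250 bases before an annotated start, 5' to 3' on the gene's strand) are printed for that reason. The first pair compares 2 annotated starts of Vav3, at chr3:109340433-109340682 and chr3:109573757-109574006, both on the plus strand. The second pair is Src at chr2:157424043-157424292 on the plus strand and Cbl at chr9:44234047-44234296 on the minus strand. Capitals mark matches, on either strand, to the letters searched for: AP-1 TGANTCA, the NF-kB consensus, PU.1 GAGGAA, E-box CACGTG, GC box GGGCGG and NFAT GGAAA. The letters of NFAT and PU.1 share a stretch, so neighbouring matches can overlap.
Vav3 outer start: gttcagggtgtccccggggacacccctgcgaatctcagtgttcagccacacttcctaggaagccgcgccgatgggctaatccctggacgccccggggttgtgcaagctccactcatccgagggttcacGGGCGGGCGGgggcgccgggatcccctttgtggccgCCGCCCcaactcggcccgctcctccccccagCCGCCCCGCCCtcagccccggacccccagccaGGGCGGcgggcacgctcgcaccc
Vav3 inner start: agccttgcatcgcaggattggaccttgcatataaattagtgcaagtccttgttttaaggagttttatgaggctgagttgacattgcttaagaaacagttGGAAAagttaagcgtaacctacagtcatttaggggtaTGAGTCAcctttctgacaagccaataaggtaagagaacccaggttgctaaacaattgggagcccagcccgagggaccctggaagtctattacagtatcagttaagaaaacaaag
Src start: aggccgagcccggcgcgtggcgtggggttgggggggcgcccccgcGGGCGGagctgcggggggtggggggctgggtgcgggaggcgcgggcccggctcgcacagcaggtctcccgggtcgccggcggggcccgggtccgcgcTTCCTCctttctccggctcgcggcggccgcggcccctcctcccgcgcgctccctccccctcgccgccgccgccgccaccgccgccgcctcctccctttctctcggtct
Cbl start: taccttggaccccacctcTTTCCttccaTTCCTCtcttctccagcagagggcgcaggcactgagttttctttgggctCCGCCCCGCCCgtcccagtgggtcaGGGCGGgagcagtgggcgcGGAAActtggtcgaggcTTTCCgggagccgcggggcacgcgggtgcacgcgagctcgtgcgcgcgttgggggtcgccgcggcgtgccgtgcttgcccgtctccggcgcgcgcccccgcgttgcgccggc

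The outer Vav3 window held 6 GC boxes and was covered by a peak in 7 of 7 libraries. The inner Vav3 window held no GC box and had 1 AP-1 match (TGAGTCA) and 1 NFAT match, and it was covered in 0 of 7 libraries, RANKL-treated libraries included. Its G and C content was 42.4%, against 73.2% in the outer window, 82.8% at Src and 71.6% at Cbl. The Src window had 1 GC box and 1 PU.1 match, and the Cbl window had 3 GC boxes, 3 NFAT matches and 1 PU.1 match. Both were covered in 7 of 7 libraries, as was the Itgav window at chr2:83724147-83724396, which had 2 PU.1 matches. Over 32815 windows of the same length, 6.75% held the AP-1 letters, 1.21% NF-kB, 23.3% PU.1, 6.02% the E-box, 32.7% the GC box and 55.6% NFAT. The 2 motifs with no match in the windows of these genes were NF-kB and the E-box. A match is a description of the letters only. Itgb3, Ptk2b and Pxn are named without a window.

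Itgb3, on chr11:104608000-104670476 (Entrez 16416), had more peaks in both RANKL libraries than in either untreated library. It had 12 and 10 peaks in the untreated libraries (replicates 1 and 2), 19 and 16 under RANKL, 10 and 18 under RANKL+I-BET and 9 under I-BET. Per 100000 peaks of the list these are 8.78 and 8.53 untreated, 12.3 and 12.1 with RANKL, 7.98 and 10.8 with RANKL+I-BET, and 6.29 with I-BET. Both RANKL values lie above both untreated values and above both RANKL+I-BET values. Among 8501 genes with a mean of at least 5 peaks, 11.9% had RANKL values wholly above the untreated ones and 8.92% had RANKL+I-BET values wholly below the RANKL ones, and Itgb3 was the only 1 of the 7 genes in either class. With 2 libraries against 2, the 3 possible splits allow no two-sided p below 0.333, so no p is given for counts. The difference was not kept among stronger peaks. In peaks with a -log10 q of at least 5, a setting chosen for this gene after the data were seen, its rates were 2.90 and 11.1 untreated, 8.72 and 9.49 with RANKL, and 6.65 and 13.8 with RANKL+I-BET, which overlap. These are per 100000 peaks that passed the limit in each list. They rest on few peaks, 1 and 8 untreated, 6 and 7 with RANKL, and 4 and 17 with RANKL+I-BET. With every list cut to the 117175 strongest peaks the rates were 6.83 and 8.53 untreated, 14.5 and 13.7 with RANKL, and 8.53 and 13.7 with RANKL+I-BET, so RANKL stayed above untreated but no longer above RANKL+I-BET.

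**Figure D1:**
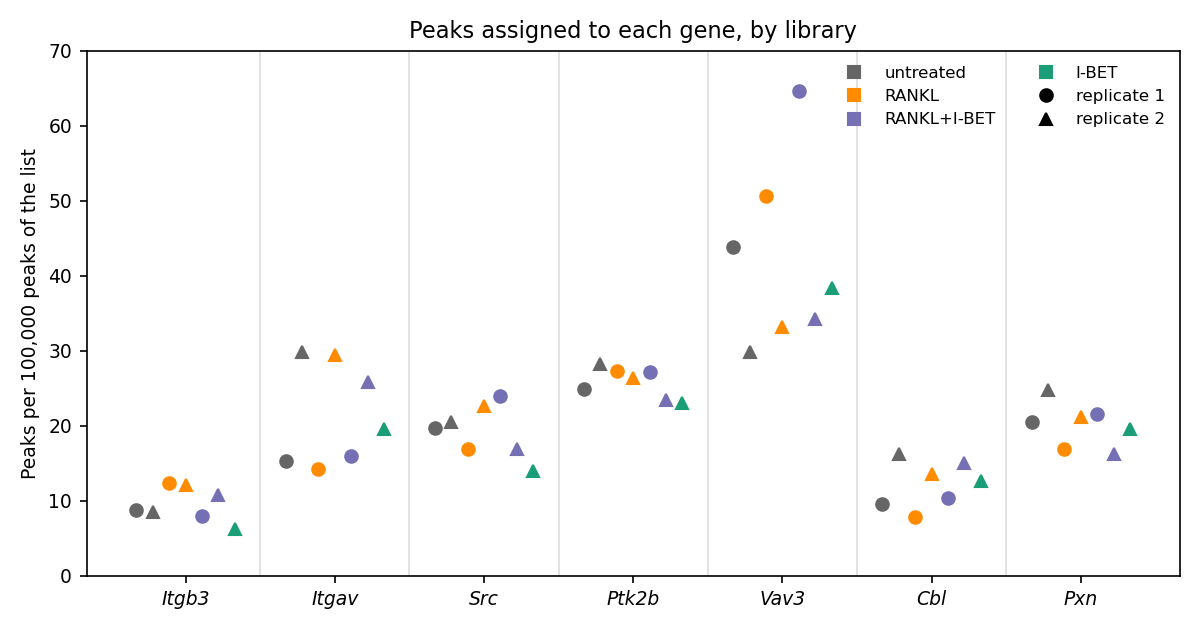
Peaks per 100000 peaks of the list (vertical axis) for each of the 7 genes in the 7 libraries, grouped by treatment, 1 point per library. At Itgb3 the RANKL points (12.3 and 12.1) lie above the untreated points (8.78 and 8.53), whereas the other 6 genes have overlapping groups.

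Itgb3 had 26 regions, 21 of them inside the gene, and 3 were called in all 7 libraries. A region inside the gene, at chr11:104640737-104642097, was called in all libraries except untreated replicate 1. Its deposited -log10 p was 70.2 in untreated replicate 2, 30.2 and 114.4 with RANKL, 14.5 and 468.6 with RANKL+I-BET and 20.5 with I-BET; these values are each list's own, so they are compared within a list only. Of regions called in exactly 6 libraries, 27 of the 34 at the 7 genes lacked only untreated replicate 1, and so did 13704 of 17940 in the genome.

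Itgb3 had 2 regions called in both RANKL libraries and neither untreated library, which are termed RANKL-only. At chr11:104630182-104630643 the -log10 p was 3.99 and 3.56 with RANKL, and at chr11:104631251-104631746 it was 8.50 and 9.19. Under RANKL+I-BET both were called only in replicate 2, with 7.18 and 35.8, and neither was called under I-BET. Another region, chr11:104611548-104612069, had a peak in each RANKL+I-BET library (4.21 and 28.3), in RANKL replicate 1 (3.99) and under I-BET (2.99), and in no untreated library. No Itgb3 region was untreated-only. The RANKL-only count of Itgb3 was 1 at a -log10 q of at least 5. Leaving out RANKL replicate 1 gave 4, and leaving out RANKL replicate 2 or untreated replicate 2 gave 7 each. By replicate number, 12 of 23 Itgb3 regions (52.2%; genome 39.9%) were in RANKL and not in untreated replicate 1, with 6 (26.1%; genome 32.8%) the other way. In replicate 2 the counts were 5 (33.3%; genome 27.0%) and 1 (6.67%; genome 16.2%) of 15.

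To compare strength where all libraries had a peak, the best -log10 p of each of 43170 regions called in all 7 libraries was turned into a percentile within its library, with 100 the strongest. The region over the Itgb3 start coordinate, chr11:104607560-104608789, stood at 14.6 and 3.19 untreated, 9.06 and 2.28 with RANKL, 12.3 and 4.05 with RANKL+I-BET, and 2.32 with I-BET. The start of Itgb3 was thus a weak shared region in every library. Its other shared regions were at 0.103 to 25.9 (chr11:104608868-104609848) and at 39.7 to 61.5 (chr11:104646704-104647966). All 3 overlapped between untreated and RANKL.

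Itgav, on chr2:83722303-83806917 (Entrez 16410), encodes the partner chain and had a weak shared region over its start coordinate and strong ones just inside the gene. Its peaks numbered 21 and 35 untreated, 22 and 39 with RANKL, 20 and 43 with RANKL+I-BET and 28 with I-BET. Replicate 2 was higher than replicate 1 in all 3 treatments with 2 libraries, at 29.9, 29.4 and 25.8 per 100000 against 15.4, 14.3 and 16.0. In these 3 treatments the gap went with the replicate number. The I-BET library, also numbered replicate 2, had 19.6, which lies between the 2 sets of values. The region that holds the RefSeq start, chr2:83722968-83726538, ranked at 79.8 and 81.5 untreated, 74.8 and 78.9 with RANKL, 81.3 and 79.5 with RANKL+I-BET and 83.3 with I-BET. The region over the start coordinate itself, chr2:83721562-83722362, ranked between 1.07 and 28.6. Inside the gene, chr2:83728004-83730264 ranked between 58.0 and 86.1 in the 7 libraries.

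An upstream Itgav region at chr2:83699279-83701639, 21844 bp from the gene, had the largest positive difference between RANKL and untreated ranks among the 68 shared regions of the 7 genes. It stood at 20.3 and 14.0 untreated, 31.2 and 65.5 with RANKL, 17.5 and 53.3 with RANKL+I-BET and 15.6 with I-BET. The RANKL libraries lay above the untreated ones, by 31.2 points on the mean and by 10.8 and 51.6 by replicate number. In limma's test on normal scores of the ranks over 43170 regions the difference was 0.91 with SE 0.44 (adjusted p = 0.992). RANKL+I-BET was 12.9 points below RANKL on the mean, by 13.7 and 12.2 within replicate numbers 1 and 2, while the groups overlapped. Itgav had no RANKL-only region and 2 untreated-only regions. At chr2:83697676-83698184 the untreated -log10 p was 4.14 and 4.69, and RANKL+I-BET replicate 2 had 9.56. At chr2:83766120-83766416 it was 2.89 and 4.69, with no peak in any other library.

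Src, on chr2:157423906-157471838 (Entrez 20779), encodes the kinase whose loss blocks bone resorption, and its strongest regions lay inside the gene and not at its start. Its peaks numbered 27 and 24 untreated, 26 and 30 with RANKL, 30 and 28 with RANKL+I-BET and 20 with I-BET. The region chr2:157456496-157459397 ranked at 81.0 and 98.9 untreated, 86.8 and 99.0 with RANKL, 84.1 and 96.7 with RANKL+I-BET and 96.5 with I-BET. By contrast, the start region chr2:157422567-157424710 ranked at 14.6 and 5.87 untreated, 7.74 and 4.27 with RANKL, 17.5 and 2.86 with RANKL+I-BET and 2.32 with I-BET. The window printed for Src lies in this weak region, and the one for Cbl in a region among the strongest shared ones.

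Within Src, the region chr2:157451319-157452717 had the largest positive difference under RANKL among its 8 shared regions. Its percentile was 30.2 and 81.5 untreated, 61.1 and 88.1 with RANKL, 50.5 and 84.5 with RANKL+I-BET and 78.2 with I-BET, so the groups overlapped. The mean difference was 18.7 points, made of 30.9 and 6.53 by replicate number. Src had 2 RANKL-only regions, both on the low-coordinate side of the gene. The region chr2:157410613-157411653, 12773 bp away, had a -log10 p of 5.16 and 7.42 with RANKL, 16.8 in RANKL+I-BET replicate 2 and 2.99 with I-BET. The region chr2:157420693-157421075, 3022 bp away, had 5.78 and 4.26 with RANKL and no peak in the other 5 libraries, the only 1 of the 10 RANKL-only regions missing from both RANKL+I-BET libraries. At a -log10 q of at least 5 Src had 0 RANKL-only regions.

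Ptk2b, on chr14:66153257-66281100 (Entrez 19229), encodes Pyk2 and had the highest share of regions common to all libraries, 16 of 56 (28.6%, against 12.5% in the genome). Its peaks numbered 34 and 33 untreated, 42 and 35 with RANKL, 34 and 39 with RANKL+I-BET and 33 with I-BET. The strongest shared region, chr14:66264119-66266966, ranked at 85.7 and 96.8 untreated, 84.0 and 94.5 with RANKL, 83.7 and 95.4 with RANKL+I-BET and 94.3 with I-BET. The region over its high-coordinate end, chr14:66278021-66282222, stayed between 56.7 and 73.4. A region inside the gene, chr14:66220781-66221962, stood at 49.6 and 59.9 untreated, 70.2 and 75.1 with RANKL, 59.0 and 82.0 with RANKL+I-BET and 53.2 with I-BET. Its RANKL values were above its untreated ones by 17.9 points on the mean (score difference 0.48, SE 0.31, limma adjusted p = 0.992).

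Single regions of Ptk2b were called by group in both directions. The RANKL-only region chr14:66261728-66262387 had a -log10 p of 2.93 and 5.77 with RANKL and 3.11 and 11.1 with RANKL+I-BET. The untreated-only regions chr14:66216533-66216729 (4.14 and 4.69) and chr14:66246587-66246871 (3.50 and 4.69) had no peak in any other library. All of these are near the weak end of their lists, whose lowest -log10 p values ran from 2.01 to 2.57.

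Vav3, on chr3:109340465-109685694 (Entrez 57257), spans 345230 bp and had the most regions of the 7 genes, 168. Of these, 103 were called in a single library (61.3%; genome 55.6%) and 15 in all 7 (8.93%; genome 12.5%). Its peaks numbered 60 and 35 untreated, 78 and 44 with RANKL, 81 and 57 with RANKL+I-BET and 55 with I-BET. Per 100000 they were 43.9 and 29.9 untreated, 50.6 and 33.2 with RANKL, 64.7 and 34.3 with RANKL+I-BET and 38.4 with I-BET. Replicate 1 was higher in each treatment with 2 libraries, opposite to Itgav and Cbl, and within each number RANKL was above untreated and RANKL+I-BET above RANKL. The groups overlapped in every comparison, and how many other genes show this order was not counted. Regions in RANKL and not in untreated cells numbered 53 of 112 in replicate 1 (47.3%; genome 39.9%), with 34 (30.4%; genome 32.8%) the other way. In replicate 2 they were 15 (30%; genome 27.0%) and 6 (12%; genome 16.2%) of 50, so the Vav3 shares lay close to the background.

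RANKL-only regions of Vav3 were 5 of 125 (4%; genome 3.37%), a share near the background. Of these 5, 4 had peaks in each RANKL+I-BET library too, beside 37.4% of RANKL-only regions in the genome, a difference that was not tested. Upstream, chr3:109328964-109329458, 11254 bp from the gene, had a -log10 p of 18.4 and 6.58 with RANKL and 6.07 and 30.5 with RANKL+I-BET. Further out, chr3:109286524-109287026, 53690 bp away, had 7.10 and 4.26 with RANKL and 8.14 and 35.8 with RANKL+I-BET. Neither had a peak in untreated or I-BET cells. Inside the gene, chr3:109422636-109423397 had 6.43 and 4.99 with RANKL, 9.63 and 13.9 with RANKL+I-BET and 3.79 with I-BET. The region chr3:109464051-109465083 had 8.50 and 6.58 with RANKL, 3.11 and 10.6 with RANKL+I-BET and 6.53 with I-BET, so I-BET without RANKL also called these 2. The other one, chr3:109612113-109612504, had 5.16 and 4.26 with RANKL and was called in RANKL+I-BET replicate 2 only (9.56). The Vav3 count was 1 at a -log10 q of at least 5. Leaving out RANKL replicate 1 gave 13, RANKL replicate 2 gave 39 and untreated replicate 2 gave 16, since the class is looser with 1 library fewer.

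**Figure D2:**
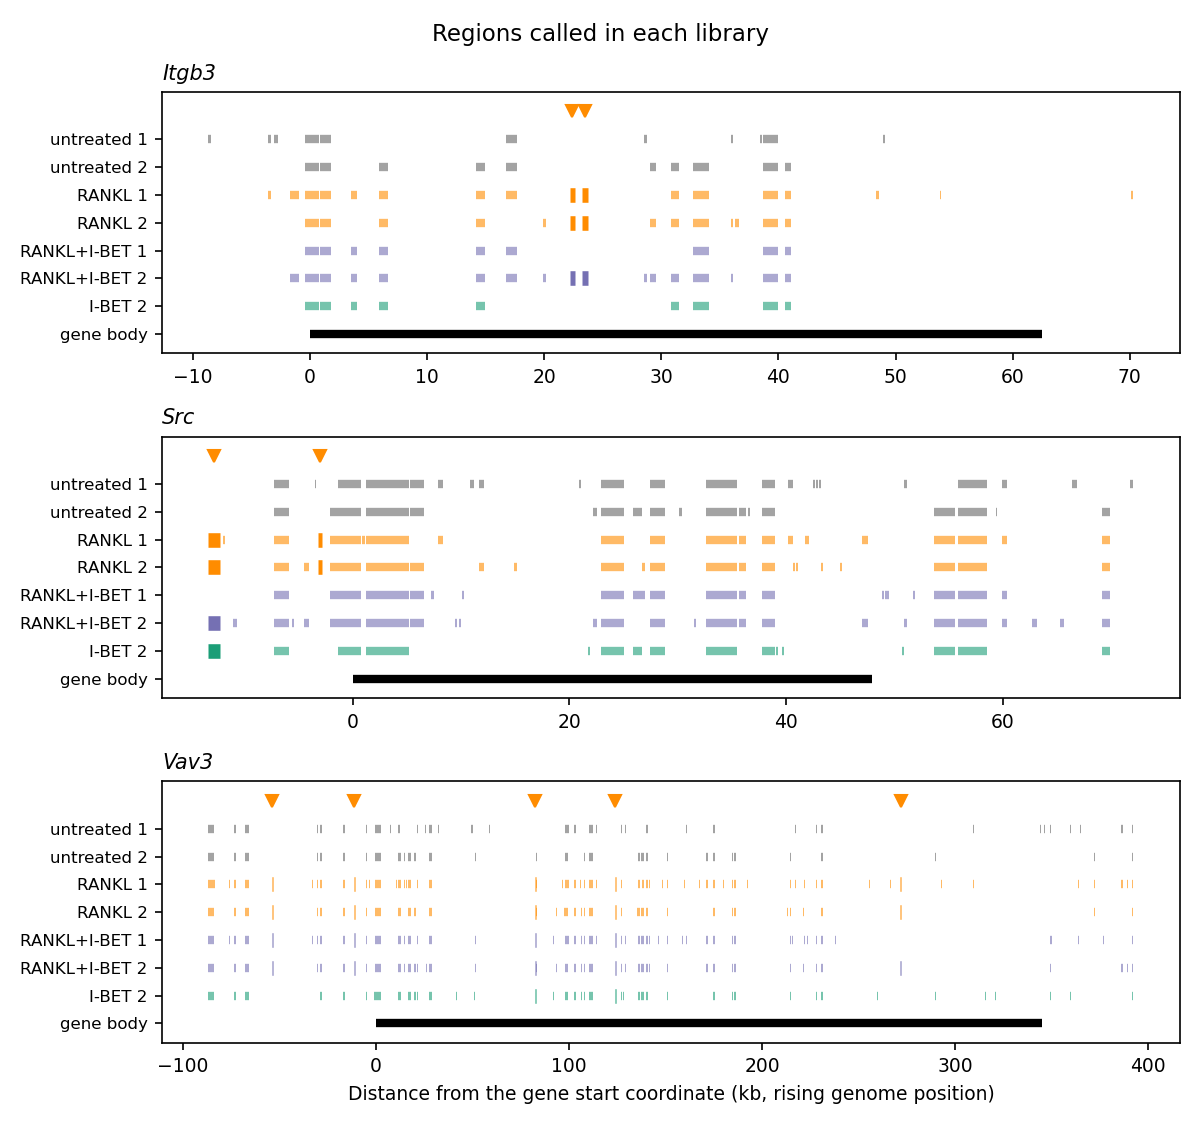
Regions called in each library (rows) at Itgb3, Src and Vav3 by distance from the gene's start coordinate in kb, with the gene body as a black bar and triangles over RANKL-only regions, whose marks are drawn taller. The 5 RANKL-only regions of Vav3 lie upstream of and inside the gene, and shared regions form columns through all 7 rows.

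The shared Vav3 region chr3:109272713-109274544, 66836 bp upstream, stood at 76.8 and 64.3 untreated, 93.0 and 76.7 with RANKL, 92.4 and 85.9 with RANKL+I-BET and 64.4 with I-BET. RANKL+I-BET lay above untreated in both libraries, by 15.6 and 21.5 points (score difference 0.70, SE 0.34, limma adjusted p = 1.0), while RANKL overlapped untreated although it was higher by 16.2 and 12.4 within the replicate numbers. The strongest shared region, chr3:109253639-109256569, ranked between 85.4 and 97.9, and the outer start, chr3:109339773-109342879, at 77.6 and 80.8 untreated, 71.5 and 73.5 with RANKL, 76.6 and 72.8 with RANKL+I-BET and 74.2 with I-BET. In the other direction, chr3:109323147-109324547 stood at 53.0 and 51.8 untreated, 32.3 and 37.2 with RANKL, 42.9 and 34.6 with RANKL+I-BET and 32.0 with I-BET.

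Cbl, on chr9:44142976-44234259 (Entrez 12402), had a start among the strongest shared regions of every library. Its start region chr9:44232388-44235515 ranked at 96.5 and 98.3 untreated, 92.3 and 98.1 with RANKL, 95.2 and 97.4 with RANKL+I-BET and 95.0 with I-BET. Its peaks numbered 13 and 19 untreated, 12 and 18 with RANKL, 13 and 25 with RANKL+I-BET and 18 with I-BET, and replicate 2 was higher throughout. All 5 shared regions of Cbl had a lower mean rank with RANKL than untreated, by a median of 10.7 points, and 4 of the 5 were lower within both replicate numbers. Over the genome 30.3% of shared regions were lower in both numbers and 26.1% higher. The largest difference was at chr9:44213359-44214179, at 62.8 and 69.6 untreated, 31.2 and 64.5 with RANKL, 37.6 and 59.0 with RANKL+I-BET and 55.0 with I-BET. No adjusted p was below 0.992 in limma for this comparison at any of the 7 genes.

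Cbl had no RANKL-only region and 1 untreated-only region, chr9:44230206-44230555 (3.50 and 8.05), which had peaks in RANKL+I-BET as well (3.11 and 10.1). This region and 2 others, chr9:44175574-44176246 and chr9:44191157-44191668, were found in each RANKL+I-BET library and neither RANKL library. The latter 2 were each also called in 1 untreated library and under I-BET. Their absence from RANKL libraries is what chose them.

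Pxn, on chr5:115491970-115555987 (Entrez 19303), had the most even peak counts, at 28 and 29 untreated, 26 and 28 with RANKL, 27 and 27 with RANKL+I-BET and 28 with I-BET. Its shared regions had the highest median percentile of the 7 genes, 76.1, against 12.6 at Itgb3. The strongest, chr5:115512090-115517347, ranked between 78.1 and 87.6 in the 7 libraries. Relative to untreated cells, 5 of its 10 shared regions were lower within both numbers with RANKL and 1 was higher, and with RANKL+I-BET 8 were lower and 0 higher, beside 32.6% lower and 27.4% higher in the genome. At chr5:115527906-115528663 the percentile was 34.1 and 47.1 untreated, 13.5 and 28.6 with RANKL, 8.79 and 41.8 with RANKL+I-BET and 40.2 with I-BET. RANKL lay below untreated there by 19.6 points (score difference -0.59, SE 0.42, limma adjusted p = 0.992). Pxn had no RANKL-only or untreated-only region. The region over its start coordinate, chr5:115488097-115493610, ranked at 86.4 to 95.9, but its midpoint lies nearer another gene, so it is not among the regions counted.

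**Figure D3:**
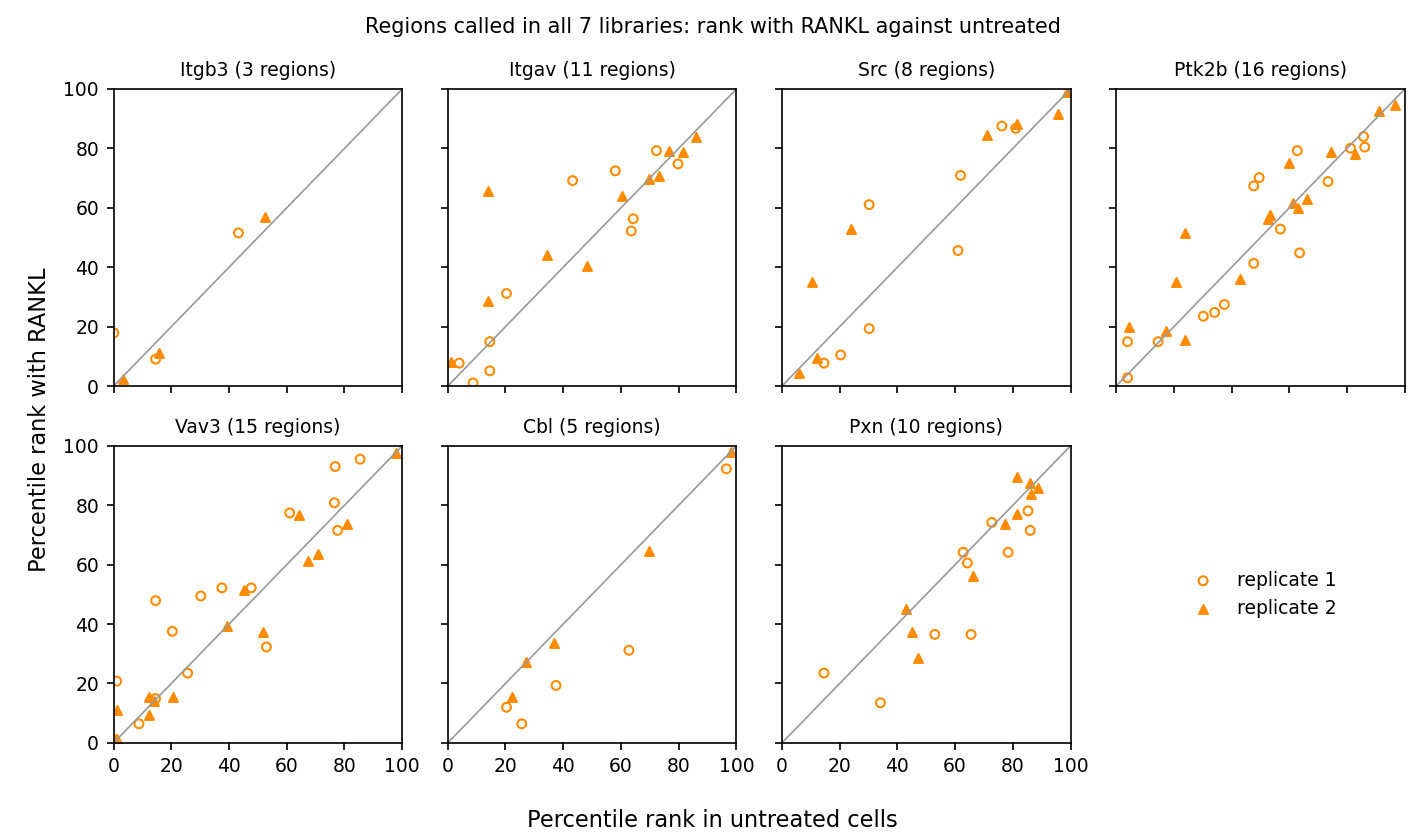
Percentile with RANKL (vertical axis) against the percentile in untreated cells (horizontal axis) for the 68 regions called in all 7 libraries, with circles for replicate 1, triangles for replicate 2 and the line of equality. Cbl circles lie below the line in all 5 regions, and the Itgav triangle at 14.0 and 65.5 is the region farthest above it.

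Across the 7 genes, the share of RANKL-only regions was near that of the genome. RANKL-only regions were 10 of 338 regions called in any untreated or RANKL library, 2.96%, against 3.37% over all regions of the genome. They were 5 of 125 at Vav3 (4%), 2 of 26 at Itgb3 (7.69%), 2 of 44 at Src and 1 of 45 at Ptk2b. Untreated-only regions were 5 of 338 (1.48%), against 0.748% in the genome, with 2 at Itgav, 2 at Ptk2b and 1 at Cbl. With only peaks of a -log10 q of 5 or more kept and the classes taken anew, the counts were 4 and 0. A region whose untreated peaks fall below that limit can enter the RANKL-only class there. The 4 are therefore not a subset of the 10 by definition, and the genome share at this setting was not counted. Regions of both untreated libraries seen in neither RANKL nor RANKL+I-BET cells were 3 of 412 (0.728%; genome 0.284%), and those of all RANKL and RANKL+I-BET libraries absent from untreated cells were 5 of 412 (1.21%; genome 1.03%). Within the replicate numbers, regions in RANKL but not untreated were 37.7% in number 1 and 26.0% in number 2 (39.9% and 27.0% in the genome), and the reverse was 29.1% and 15.3% (32.8% and 16.2%). Of 68 shared regions, RANKL lay wholly above untreated in 8 and wholly below in 10, against 13.7% and 15.9% of 43170 in the genome. limma called 0 of the 68, and 0 of 43170, at an adjusted p of 0.05, and 0 of the 68 and 1705 of 43170 (3.95%) had an unadjusted p below it.

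**Figure D4:**
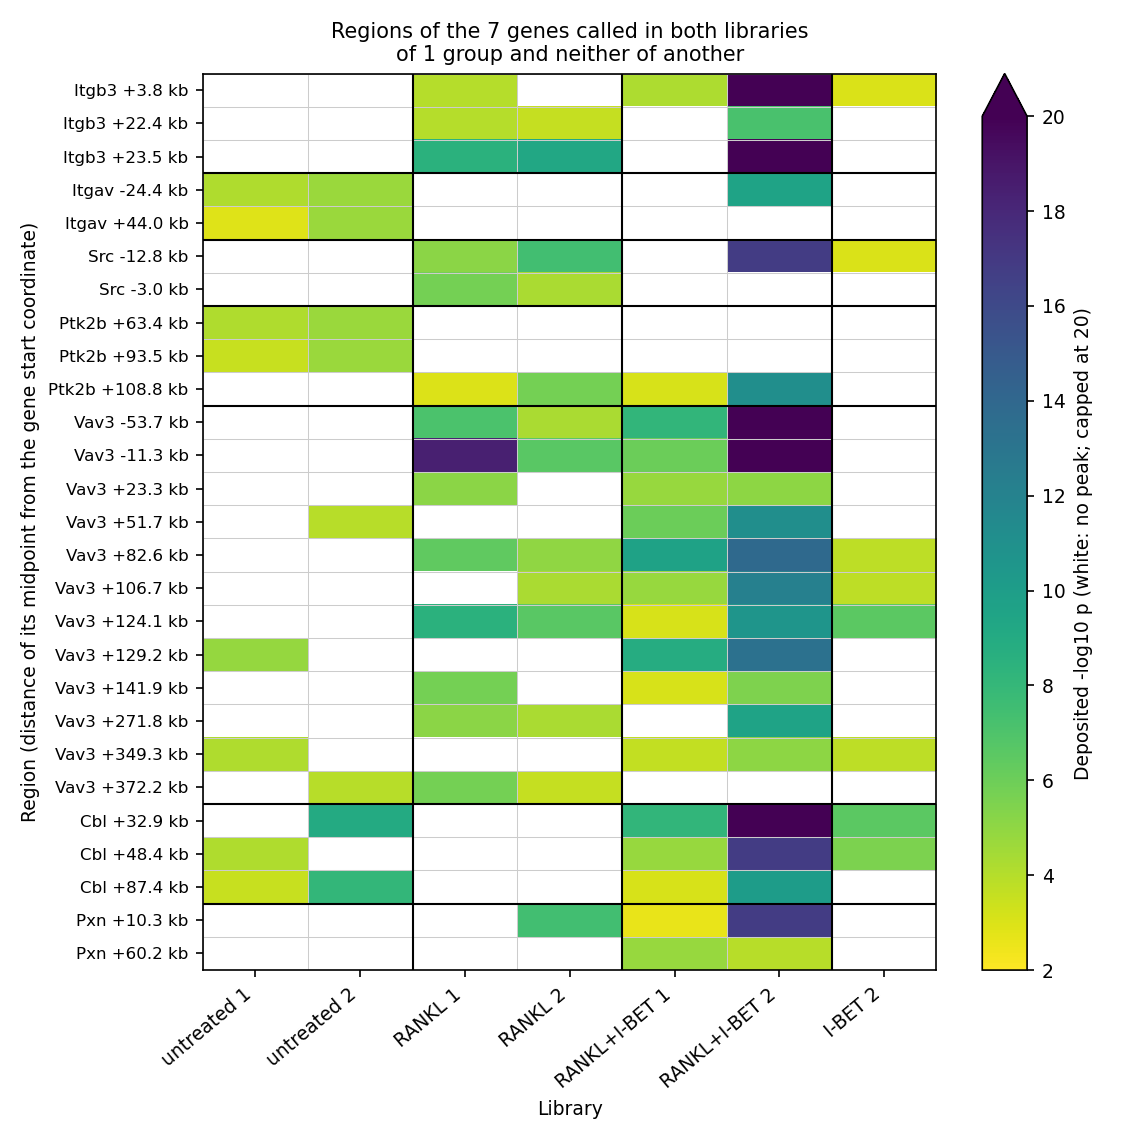
Deposited -log10 p (colour, capped at 20, white where there was no peak) in the 7 libraries (columns) of the regions that both libraries of a group had and neither library of another had. Rows give the gene and the distance in kb from its start coordinate; RANKL+I-BET replicate 2 is coloured in most rows, and the 2 Itgb3 rows at the RANKL-only regions are white in RANKL+I-BET replicate 1.

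With I-BET added, 5 of the 10 RANKL-only regions had a peak in each RANKL+I-BET library, 4 in 1 and 1 in neither, against 37.4% in both and 12.3% in neither for RANKL-only regions of the genome. All 4 of the single calls came from RANKL+I-BET replicate 2, the longest list, whose part in the result was not tested. Between RANKL+I-BET and RANKL, 7 of 345 regions were RANKL+I-BET-only (2.03%; genome 1.86%), 3 each at Vav3 and Cbl and 1 at Pxn. In the other direction there were 2 (0.58%; genome 0.571%), 1 each at Src and Vav3. By replicate number, regions in RANKL+I-BET and not RANKL were 22.6% in number 1 and 28.6% in number 2 (genome 19.4% and 33.7%), and the reverse was 26.3% and 11.4% (genome 36.8% and 10%). Over the 68 shared regions, 5 were wholly above and 1 below RANKL (7.95% and 7.85% in the genome). limma called 0 of the 68 and 0 of 43170, with 0 and 170 (0.394%) at an unadjusted p below 0.05. In the limma test of the difference between the RANKL effect with I-BET and that without it, which rests on the 1 I-BET library, 0 of 43170 passed. An unadjusted p below 0.05 was met by 735 (1.7%) and by 0 of the 68.

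Against untreated cells, RANKL+I-BET had 11 regions of its own of 351 (3.13%; genome 3.73%), 7 of 123 at Vav3 (5.69%), 2 at Pxn and 1 each at Itgb3 and Ptk2b, and untreated cells had 3 (0.855%; genome 0.458%), 2 at Ptk2b and 1 at Itgav. Among these Vav3 regions, chr3:109363587-109363954 had a -log10 p of 4.80 and 5.07 with RANKL+I-BET and 5.16 in RANKL replicate 1. Of the 68 shared regions 7 lay wholly above untreated and 8 below (12% and 14.7% in the genome). Vav3 held 5 of those above and 2 of those below. limma called 0 of the 68 and 0 of 43170. The unadjusted limma p was below 0.05 for 1 of the 68, at Vav3 (chr3:109368166-109369404), and for 1347 of 43170 (3.12%). That Vav3 region lay near the weak end of the shared regions, at a mean percentile of 1.10 untreated and 12.5 with RANKL+I-BET (score difference 1.13, SE 0.45). In the 1 I-BET library, 39 of 280 regions called there or in an untreated library were in I-BET and neither untreated library (13.9%; genome 21.4%), with 18 of 96 at Vav3 (18.8%), and 14 were in both untreated libraries and not in I-BET (5%; genome 2.38%). There is no replicate of I-BET, so these are values of that library alone.

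Among 53 other genes of the pathway, 58 of 1372 regions (4.23%; genome 3.37%) at 30 genes were RANKL-only, and 8 (0.583%; genome 0.748%) at 8 genes were untreated-only. Other integrin chains had 9 RANKL-only (6.98%) and 0 untreated-only regions of 129, at 4 of 7 genes. Kinases, phosphatases and ligases had 18 (4.46%) and 2 of 404, at 8 of 12 genes for the RANKL-only ones. The actin core of the podosome had 8 (2.54%) and 2 of 315 and integrin activators and adaptors 5 (2.65%) and 2 of 189, both below the genome's 3.37%. Matrix ligands had 3 (10%) and 0 of 30. The genes with most RANKL-only regions were the Rac exchange factor Dock1 (5, among 148 regions in all) and the Src-family kinase Fyn (5, among 83). The Rac exchange factor Dock5 (4, among 66, with 1 untreated-only) and the Cbl relative Cblb (3, among 37) followed. Arhgef7, with 67 regions, had 0 RANKL-only ones. RANKL+I-BET-only regions against RANKL numbered 34 of 1421 (2.39%; genome 1.86%), led by Fyn and Pstpip2 with 3 each. RANKL-only regions against RANKL+I-BET numbered 13 (0.915%; genome 0.571%), led by Dock1, Gsn and Swap70 with 2 each.

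By the distance between log2 peak counts over the 7 libraries, each count taken as its deviation from the gene's mean, the pathway gene most like Vav3 was Dock1 (distance 0.50). Cdc42 was nearest to Itgav (0.36), Itgb5 to Cbl (0.38), and Wipf1 to both Src (0.53) and Pxn (0.21). The distances are a description over 7 libraries that share their list lengths.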

How the data were processed

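ATAC-seq peak lists of 7 libraries were used. The mm10 build, trimming by cutadapt, Bowtie2, SAMtools with Picard and bedtools, FastQC, and MACS2 peaks are named in the submitters' processing notes, with settings and versions not given in the sources used here. The authors deposited 1 narrowPeak list per library, with a score, a fold (ratio over local background), a -log10 p and a -log10 q for each peak. Read counts were not used here. Overlapping peaks were merged into regions. Ranks of -log10 p among regions called in all 7 libraries were turned into normal scores and fitted with limma 3.58.1 (R 4.3.3, 4 groups, Benjamini-Hochberg over 43170 regions). The fit was also run on simulated data. Their shifts were larger than any score difference at the 7 genes, and their noise was drawn independently for each library. That run therefore cannot say whether differences of the size seen here would be found. Tables were made with Python 3.11.15 and pandas 2.3.3. Genes came from RefSeq (GRCm38.p6) and mitochondrial genes were left out.

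The 7 genes, the 53 pathway genes and the marker lists were chosen with earlier results of these data known. Regions named are those at the gene start, those called by group, the 3 strongest shared ones and those with the largest rank difference; the 104640737 region of Itgb3, the Vav3 region with an unadjusted p under 0.05 and the Pxn start region were chosen after their values were seen. The alternatives tried were a -log10 q minimum of 5, equal-length lists, 50% cover, 50 kb or gene body only, other rank measures, a replicate block and leaving out each library. The group counts of 1 pathway list and the nearest pathway gene of Itgb3 and Ptk2b are not reported here.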

Additional observations from a re-analysis of the deposited data

How the results depend on the processing

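The limits are 2 libraries per group, 1 for I-BET, lists of unequal length and strength, and no read counts, so change within a called region was seen only as a rank. At a -log10 q of at least 5, RANKL-only regions against untreated were 4 (main 10) and untreated-only 0 (main 5). RANKL-only regions against RANKL+I-BET were 0 (main 2), and untreated-only against RANKL+I-BET 0 (main 3). These classes were taken anew from the peaks kept, so a region can enter a class as well as leave it. With lists of equal length, RANKL+I-BET-only regions were 4 against RANKL (main 7) and 7 against untreated (main 11), and RANKL-only against RANKL+I-BET 1. With 50% cover that last count was also 1. With gene bodies only it was 0, and RANKL-only against untreated 6. Leaving out 1 library loosens the class, so counts rise by construction: RANKL-only 13 to 59 and untreated-only 6 to 68 in the first comparison, RANKL+I-BET-only 12 to 57 and RANKL-only 2 to 45 against each other, RANKL+I-BET-only 21 to 65 and untreated-only 3 to 62 in the last. The highest of each came without RANKL replicate 2 (59 and 45), untreated replicate 2 (68 and 62) or RANKL+I-BET replicate 1 (57 and 65), and the first count was 48 without RANKL replicate 1, 47 without untreated replicate 2 and 13 without untreated replicate 1. Regions with a changed rank at the 7 genes stayed at 0 under every alternative that kept both libraries of each compared group. No region of the genome passed in these fits either. The 0 therefore neither sets these genes apart nor shows that their ranks were unchanged. Ranks of the fold were the same as ranks of -log10 p in 100% of regions, so that alternative repeats the main fit.

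Replicate numbers were not used to pair libraries in the main fit, since the labels do not say what they mark. The p-values and SEs given for single regions come from that fit. Differences within replicate numbers are given as description only. With a replicate block limma called 0 regions at an adjusted p of 0.05 in each comparison. The unadjusted p was below 0.05 for 5186 regions with RANKL and untreated, 815 with RANKL+I-BET and RANKL, and 3891 with RANKL+I-BET and untreated, of which 4, 0 and 2 were at the 7 genes, with lowest adjusted p there of 0.393, 1 and 0.542. As a check, the differences between numbers 1 and 2 correlated across regions with r of 0.42 (untreated and RANKL), 0.58 (untreated and RANKL+I-BET) and 0.61 (RANKL and RANKL+I-BET).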
